A study of Mus musculus with 10 samples.

Results

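The 32 genes described here are the Hox genes of the Hoxa, Hoxb, Hoxc and Hoxd clusters that had a named probe set on the array, chosen by symbol alone out of 19505 named genes. Hoxc13, a gene of the hair matrix, was left out of the set. Each of the 32 genes had 1 probe set. They were measured in whole skin of C57BL/6J mice that were 9 weeks old at the start, on 10 arrays, 1 per sample. Expanded skin (4 arrays) lay over a silicone expander implanted under the back skin and enlarged with PBS (phosphate-buffered saline). Non-expanded skin (4 arrays) lay over an expander that was implanted and received no PBS. Both had 1 array at each of days 0, 7, 14 and 21 after full injection. Skin without surgery came from an anagen mouse (growing hair, 1 array) and a telogen mouse (resting hair, 1 array). The labels give back skin for the expander samples and name no body site for the skin without surgery, so surgery and body site cannot be told apart in any comparison with it. Whether the RNA of an array came from 1 animal or from several is not given in the labels, so the p-values measure only the spread between these arrays.

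Hox genes encode transcription factors that bind DNA through a homeodomain. They lie side by side in 4 clusters, and genes with the same number in different clusters, called paralogues, are close relatives. In the embryo the low numbers act towards the head and the high numbers towards the tail, the limb ends and the genitals, in the order in which they lie on the chromosome. Adult dermal fibroblasts keep a pattern of Hox expression that depends on the body site from which they come.

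The members of the Hoxa cluster (8 genes) lie on chromosome 6 between 52162417 and 52260880, and those of Hoxb (9 genes) on chromosome 11 between 96194316 and 96368254 (mm10, GRCm38). The Hoxc members (8 genes) lie on chromosome 15 between 102936826 and 103036856, and the Hoxd members (7 genes) on chromosome 2 between 74668225 and 74765142. The annotated spans of 11 of the 32 genes overlap that of another Hox gene or Hox antisense RNA. That of Hoxa3, for example, covers Hoxa4, Hoxa5 and Hoxa6, and the probe positions were not used here, so signals of such genes may not be separate.

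Promoters of 17 of the 32 genes were in the RefSeq table (GRCm38.p6, 250 bases before to 50 after each start). Of these, 4 are printed because their genes span the patterns described below. Hoxa5 (chr6:52204538-52204837, minus strand) and Hoxd8 (chr2:74704365-74704664, plus strand) were above background on every array. Hoxa2 (chr6:52164782-52165081, minus strand) had its highest signals, still under the background limit, in both samples without surgery, and Hoxa13 (chr6:52260831-52261130, minus strand) was far below background throughout. Capitals mark the homeodomain core TAAT on either strand, read as ATTA where it lies on the other strand.
Hoxa5: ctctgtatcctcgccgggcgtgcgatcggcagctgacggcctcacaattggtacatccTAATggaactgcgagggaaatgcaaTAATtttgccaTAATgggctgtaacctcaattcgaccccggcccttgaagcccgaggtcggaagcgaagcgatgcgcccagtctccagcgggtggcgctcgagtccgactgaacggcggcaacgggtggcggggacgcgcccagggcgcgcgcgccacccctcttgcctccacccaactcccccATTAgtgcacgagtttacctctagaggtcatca
Hoxd8: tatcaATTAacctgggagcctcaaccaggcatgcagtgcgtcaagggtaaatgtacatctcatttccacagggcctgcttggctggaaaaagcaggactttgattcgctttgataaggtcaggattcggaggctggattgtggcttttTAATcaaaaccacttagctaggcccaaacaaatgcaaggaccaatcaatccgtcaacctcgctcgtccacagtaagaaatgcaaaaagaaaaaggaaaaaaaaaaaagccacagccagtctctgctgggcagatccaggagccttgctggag
Hoxa2: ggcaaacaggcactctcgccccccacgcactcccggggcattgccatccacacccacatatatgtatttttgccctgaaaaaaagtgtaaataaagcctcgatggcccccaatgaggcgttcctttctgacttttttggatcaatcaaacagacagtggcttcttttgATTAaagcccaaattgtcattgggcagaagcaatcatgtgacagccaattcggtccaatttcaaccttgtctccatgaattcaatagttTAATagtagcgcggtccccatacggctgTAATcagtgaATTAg
Hoxa13: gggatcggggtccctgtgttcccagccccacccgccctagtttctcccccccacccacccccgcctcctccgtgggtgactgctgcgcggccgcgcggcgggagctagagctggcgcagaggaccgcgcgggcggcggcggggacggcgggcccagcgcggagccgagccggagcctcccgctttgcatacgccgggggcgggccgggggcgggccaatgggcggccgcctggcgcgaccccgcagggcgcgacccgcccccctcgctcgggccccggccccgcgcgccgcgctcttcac
The core TAAT was present 4 times in the promoter of Hoxa5, 2 times in that of Hoxd8, 4 times in that of Hoxa2 and 0 times in that of Hoxa13. Of the 19 member promoters, 84.2% held it, against 58.0% of all 32851 promoters of the table. The joint Hox and Pbx motif TGATNNAT, searched on both strands, was found in 4 of the 19, Hoxa2 among them, and in 8.85% of all promoters. CG dinucleotides numbered 29 in Hoxa5, 6 in Hoxd8, 9 in Hoxa2 and 45 in Hoxa13, against a median of 7 over all promoters. A match describes the letters and not a bound site.

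The members above background on every array all had numbers from 5 to 8, and no member numbered 11 to 13 was above it on any array. Hoxc13, left out of the set, exceeded background on the anagen array alone. A signal is given in log2 units on the deposited scale, and a gene was counted as above background on an array when it exceeded the 95th percentile of the 23 background probe sets of that array, which lay between 6.44 and 6.55. Hoxa5, Hoxb7, Hoxc6, Hoxc8 and Hoxd8 exceeded it on all 10 arrays, 5 of the 32 genes, while 41.5% of all named genes did. A further 6 genes exceeded it on some arrays, namely Hoxa3, Hoxa10, Hoxb2, Hoxb3, Hoxb8 and Hoxc9. The remaining 21 genes exceeded it on none, against 39.6% of all named genes. Against the median of the background probe sets (5.32 to 5.53), 10 genes were above on all arrays. Hoxa3, Hoxa4, Hoxb2, Hoxb3 and Hoxc9 were among them, so the restriction to numbers 5 to 8 did not hold at this lower limit.

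**Figure D1:**
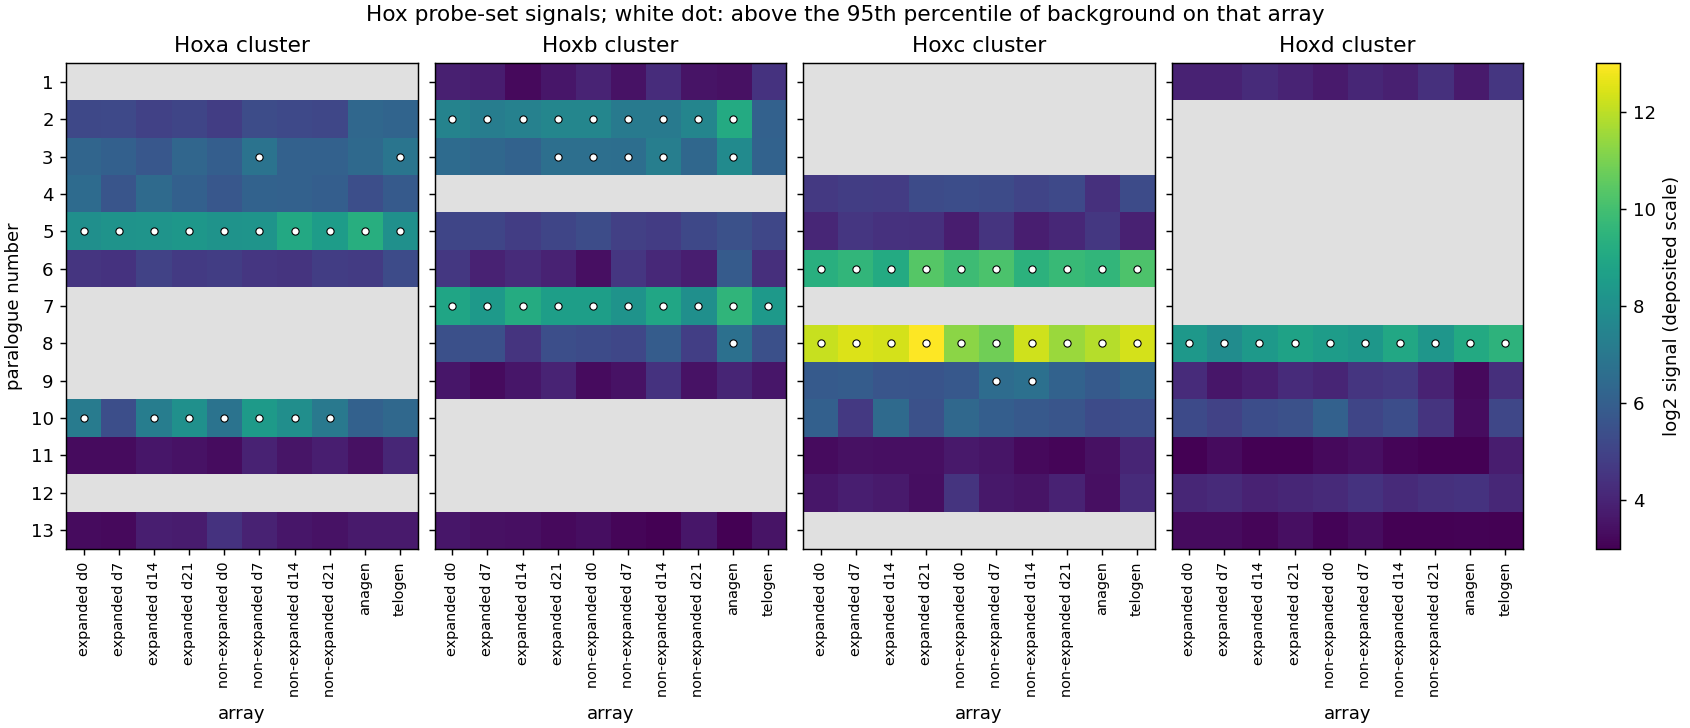
Log2 signal (colour) of the Hox genes by cluster (panels), paralogue number (rows) and array (columns: expanded, non-expanded, anagen, telogen). White dots mark signals above the 95th percentile of background on that array, and grey rows have no member. Dots on all 10 arrays occur for 5 genes, all with paralogue numbers 5 to 8, and no dot occurs for numbers 11 to 13.

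By paralogue number, all 5 genes above background on every array belonged to numbers 5 to 8, which hold 10 of the 32 genes. Of the other 5 genes of these numbers, Hoxb8 was above on 1 array and Hoxa6, Hoxb5, Hoxb6 and Hoxc5 on none. Of the 8 genes numbered 1 to 4, 0 were above on all arrays and 3 on some, with Hoxb2 above on 9 arrays. Of the 6 genes numbered 9 and 10, 0 were above on all and 2 on some, with Hoxa10 above on 7 arrays. All 8 members numbered 11 to 13, which leave out Hoxc13, stayed below background on all 10 arrays, with a highest single signal of 4.52. These are the genes of the forearm, digits, tail and genitals, such as Hoxa11, Hoxa13, Hoxb13 and Hoxd13. Both genes numbered 1, Hoxb1 and Hoxd1, which act in the embryonic hindbrain and its surroundings, were also below background on all arrays, with a highest signal of 4.58. Signals of different probe sets were not set against each other, only each against background.

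Among the genes above background on all arrays, Hoxc8, which acts in the patterning of thoracic vertebrae, lay 4.34 or more above the background limit on each array. Its neighbour Hoxc6, also a gene of the thorax, had 9.32, 9.59, 9.12 and 10.38 in expanded skin at days 0, 7, 14 and 21, and 9.84, 10.18, 9.42 and 9.73 in non-expanded skin. It read 9.58 in anagen and 10.21 in telogen skin. The anagen signal lay inside the range of both expander groups, and the telogen signal inside that of expanded skin. Hoxa5, needed for the formation of the lung and trachea, ranged from 7.98 to 8.31 in expanded and from 8.15 to 9.05 in non-expanded skin, with 9.29 in anagen and 8.02 in telogen skin. Hoxb7, a gene of the trunk, ranged from 8.37 to 9.15 in expanded and from 7.96 to 8.91 in non-expanded skin, with 9.56 in anagen and 8.42 in telogen skin. Both Hoxa5 and Hoxb7 were highest on the anagen array.

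The first comparison asked whether stretching changed the Hox pattern. Of the 32 genes, 17 passed the level filter (a mean over the 10 arrays of at least 4.86) and were tested. The other 15 were too dim, among them every member numbered 1, 11, 12 and 13. No Hox gene differed between expanded and non-expanded skin at an adjusted p under 0.05 in limma with the day as a block (0 of 17, where 0% of the 13653 genes tested were called). At an unadjusted p under 0.05 there was 1 Hox gene of 17 (5.88%), Hoxc8, which was higher, against 8.8% of all genes tested in either direction and 4.83% on the higher side. No member, dim ones included, had expanded and non-expanded arrays that did not overlap, as 2.97% of all genes tested did on the higher and 1.87% on the lower side. The median difference of the 17 was -0.17 on the log2 scale, with 4 higher, against 0.02 over all genes tested. Over all 32 genes 9 were higher, and 14 were higher after quantile normalization of the arrays.

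The gene with the smallest p was Hoxc8 (chromosome 15, 102990539 to 102994275). It had 12.17, 12.48, 12.37 and 12.97 in expanded skin at days 0, 7, 14 and 21, and 11.27, 10.85, 12.28 and 11.49 in non-expanded skin. Expanded skin was higher on each of the 4 days, by 0.90, 1.63, 0.08 and 1.48, but the groups overlapped because non-expanded skin at day 14 exceeded expanded skin at day 0. Anagen skin had 11.89, below every expanded array and inside the non-expanded range. Telogen skin had 12.35, inside the expanded range and above every non-expanded array. Expanded arrays averaged 12.49 ± 0.34 and non-expanded arrays 11.47 ± 0.60 (SD, n = 4 each), and the difference of 1.02 ± 0.31 (SE) did not pass in limma (adjusted p = 0.461, unadjusted p = 0.0149). With 4 pairs an exact permutation test cannot go below 0.125. In the same comparison 13 of 15 skeletal muscle markers were lower in expanded skin (median -2.02). Of the keratinocyte markers 8 of 9 (median 0.57) and of the hair markers 12 of 12 (median 1.47) were higher. In each list 0 passed, as was so for all genes tested. At an unadjusted limma p under 0.05 stood 10 muscle markers on the lower side and 3 keratinocyte markers on the higher side. Of the hair markers 0 did, against 8.8% of all genes tested in either direction. The mean of the hair markers was 4.95, 12.46, 5.54 and 6.49 in expanded skin at days 0, 7, 14 and 21. In non-expanded skin it was 4.83, 4.69, 8.14 and 4.87, so the gap was widest at day 7 and reversed at day 14. The part of muscle, keratinocyte and hair content in the Hox signals was not tested.

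The next 3 by p were Hoxc9, Hoxb7 and Hoxc4, and none of them passed. Hoxc9, which patterns the thoracic spinal cord, had 5.85, 5.90, 5.63 and 5.59 in expanded skin and 5.74, 6.52, 6.70 and 6.16 in non-expanded skin. Its difference was -0.54 ± 0.26 (limma adjusted p = 0.617). These signals lay near the background limit, which only 2 non-expanded arrays exceeded. Hoxb7 had 8.88, 8.37, 9.15 and 8.62 in expanded skin at days 0, 7, 14 and 21, and 8.62, 8.15, 8.91 and 7.96 in non-expanded skin. It was higher in expanded skin on all 4 days, by 0.35 ± 0.21 on average (adjusted p = 0.688), while the groups overlapped. Hoxc4, of the neck region, had 4.64, 4.82, 4.76 and 5.30 in expanded skin and 5.37, 5.28, 5.04 and 5.21 in non-expanded skin (-0.34 ± 0.23, adjusted p = 0.707), all below the background limit. Its difference was -0.21 without day 0. For Hoxc6, Hoxd8 and Hoxb2, all well measured in both groups, the differences were -0.19 ± 0.28, -0.17 ± 0.26 and 0.10 ± 0.21.

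The expanded array of day 7 was the lowest of the expander arrays for Hoxa10 and Hoxc10, genes of the lumbar region. Hoxa10 had 7.17, 5.40, 7.22 and 8.04 in expanded skin at days 0, 7, 14 and 21, and 6.83, 8.43, 7.93 and 7.03 in non-expanded skin, with a difference of -0.60 ± 0.63 (adjusted p = 0.803). Day 7 thus held both the lowest expanded and the highest non-expanded signal. The expanded signal of that day was below the background median of its array, so the size of the gap was not resolved. Hoxc10 had 4.66 on the expanded array of day 7, against 5.47 to 6.45 on the other expanded arrays and 5.62 to 6.39 on the non-expanded arrays. The same expanded array had the highest mean of hair shaft and inner root sheath markers among the expander arrays, 12.46, against 4.69 to 8.14 in non-expanded skin. The part of hair content in these signals was not tested.

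**Figure D2:**
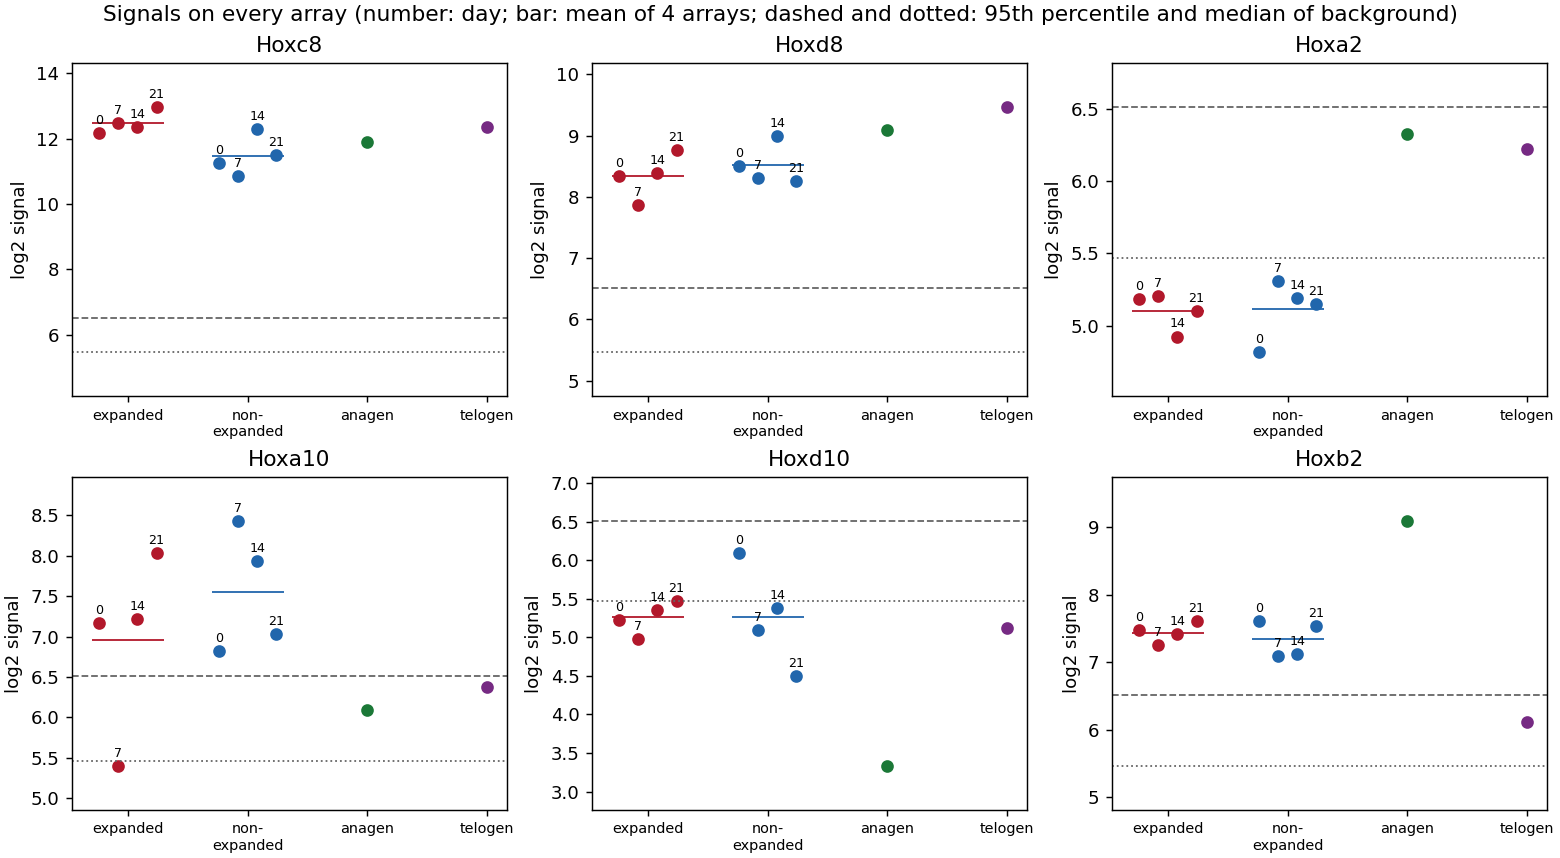
Log2 signal (y axis) of 6 Hox genes on every array by group (x axis). Numbers give the day, bars the mean of 4 arrays, and the dashed and dotted lines the 95th percentile and the median of background (medians over the arrays). Hoxa2 and Hoxd8 were lower on all 8 expander arrays than on the anagen and telogen arrays, and Hoxc8 was higher in expanded skin on each day.

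The second comparison set non-expanded skin, with an unfilled expander, against skin without surgery. Limma called 0 of 17 Hox genes at an adjusted p under 0.05 (0% of all genes), and 2 of 17 (11.8%) had an unadjusted p under 0.05, against 15.7% of all genes. Both were lower in non-expanded skin, as were 6.28% of all genes at that p. The same 2 genes, Hoxa2 and Hoxd8, had an unadjusted p under 0.05 between expanded skin and skin without surgery, where 0 of 17 Hox genes passed and 0.476% of all genes were called. At that unadjusted p stood 16.4% of all genes there, 5.69% on the lower side. The comparisons of the expander groups with skin without surgery share the anagen and telogen arrays and are not independent. These arrays were pooled in the fit, so their difference counted as spread.

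Hoxa2 (chromosome 6, 52162417 to 52164831), which sets the identity of the hindbrain and of the second pharyngeal arch, had 5.18, 5.20, 4.92 and 5.10 in expanded skin at days 0, 7, 14 and 21. It had 4.82, 5.31, 5.19 and 5.15 in non-expanded skin, against 6.32 in anagen and 6.22 in telogen skin. The 8 expander arrays lay below both arrays without surgery and below the background median of their array. The anagen and telogen signals were also below the background limit, so the gene was not above background on any array and its level was not resolved in any group. The difference between these dim signals was -1.15 ± 0.25 for non-expanded skin (limma adjusted p = 0.0844) and -1.17 ± 0.25 for expanded skin (adjusted p = 0.0657). It passed in both where telogen and anagen entered the fit as separate groups (adjusted p = 0.0244 and 0.0275), and did not pass against the telogen array alone (adjusted p = 0.223 and 0.0937).

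Hoxd8 (chromosome 2, 74704615 to 74707933), a gene of the trunk, had 8.34, 7.86, 8.39 and 8.76 in expanded skin and 8.51, 8.31, 8.99 and 8.25 in non-expanded skin. It had 9.09 in anagen and 9.46 in telogen skin, above all 8 expander arrays and well above background. The differences were -0.94 ± 0.33 for expanded skin (limma adjusted p = 0.197) and -0.76 ± 0.33 for non-expanded skin (adjusted p = 0.305). Among the 17 tested Hox genes, Hoxa2 and Hoxd8 were the 2 for which all 8 expander arrays lay below both arrays without surgery, a pattern shown by 4.15% of all genes tested. Between expanded skin and skin without surgery alone, 5 of the 17 did not overlap on the lower side, namely Hoxa2, Hoxa3, Hoxb5, Hoxb8 and Hoxd8, against 8.59% of all genes tested, and 0 of the 17 on the higher side, against 14% of all genes.

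Hoxb8, a trunk gene also known from grooming behaviour in mice, had 5.42, 5.44, 4.51 and 5.41 in expanded skin at days 0, 7, 14 and 21, against 6.67 in anagen and 5.46 in telogen skin (-0.87 ± 0.44, limma adjusted p = 0.365). Only the anagen array exceeded the background limit. The difference was -0.26 against telogen alone and -1.47 against anagen alone.

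The 3 genes numbered 10 had positive differences, none of which passed. Hoxa10 (chromosome 6, 52231197 to 52240854), which acts in the lumbar vertebrae and the uterus, averaged 7.55 ± 0.76 in non-expanded skin (SD, n = 4), against 6.10 in anagen and 6.38 in telogen skin. Its 4 non-expanded arrays exceeded both arrays without surgery, and its difference of 1.32 ± 0.67 did not pass (limma adjusted p = 0.369). Hoxc10 averaged 5.96 ± 0.33 in non-expanded skin, against 5.30 and 5.37 in anagen and telogen skin, and also did not overlap (0.62 ± 0.46, adjusted p = 0.55), but was above the background limit on no array. These were 2 of 17 Hox genes (11.8%) that did not overlap on the higher side, a share near the 11.5% of all genes tested. The share of all genes was 7.21% on the lower side, where Hoxa2 and Hoxd8 stood. Hoxd10, a gene of lumbar motor neurons, had 6.09, 5.10, 5.38 and 4.50 in non-expanded skin at days 0, 7, 14 and 21, and 3.34 in anagen and 5.11 in telogen skin. It was below the background limit on all arrays, with a difference of 1.04 ± 0.52 (adjusted p = 0.362), and its telogen signal lay within the non-expanded range. The difference was 0.15 against telogen alone and 1.93 against anagen alone.

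Over all members, dim ones included, the 10 genes numbered 5 to 8 were lower in non-expanded skin than in skin without surgery (10 of 10, median -0.45 on the log2 scale), whereas 5 of the 6 genes numbered 9 and 10 were higher (median 0.56). Of the 8 genes numbered 1 to 4, 2 were higher (median -0.20), and of the 8 numbered 11 to 13, 5 were higher (median 0.02). In expanded skin the counts were 8 of 10 lower (median -0.31) and 4 of 6 higher (median 0.26), with 2 of 8 higher in each of the outer classes (medians -0.25 and -0.20). The median over all named genes was 0.01 and -0.04 in these comparisons. The direction of the medians for numbers 5 to 8 and 9 to 10 was the same with the arrays centred on their medians and with quantile normalization. Skin without surgery is here the mean of the anagen and telogen arrays, and the pattern was weaker against telogen alone. With each gene centred on its mean, the medians on the anagen and telogen arrays were 0.45 and 0.06 for numbers 5 to 8. For numbers 9 and 10 they were -0.62 and -0.01. Hoxa5 and Hoxc5 averaged 8.48 and 4.06 in non-expanded skin, above their telogen signals of 8.02 and 3.92. These counts were not tested, the classes were chosen with results of these data known, and 15 of the 32 genes lay under the level filter.

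**Figure D3:**
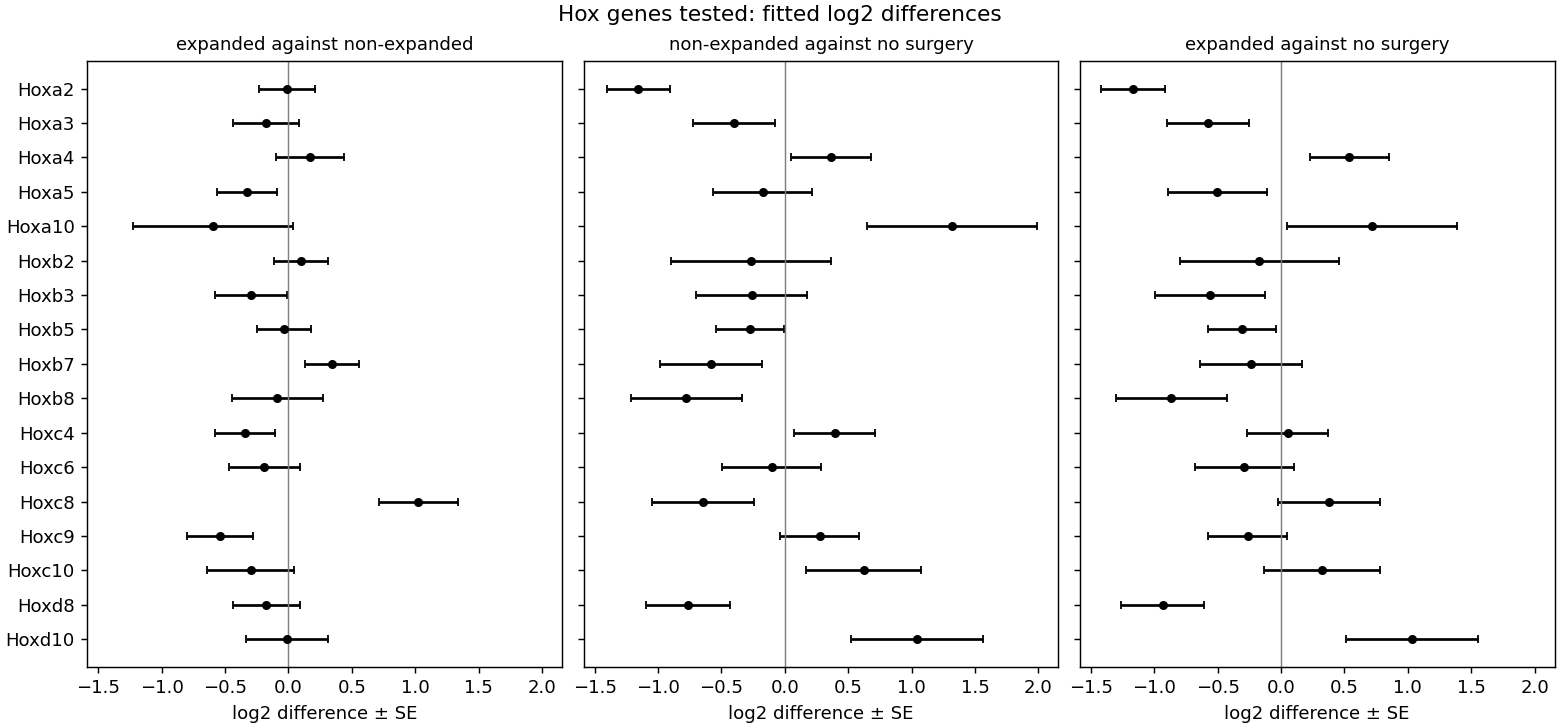
Fitted log2 differences (x axis) with standard errors for the 17 Hox genes tested (y axis) in expanded against non-expanded skin, non-expanded skin against skin without surgery and expanded skin against skin without surgery. Differences above 0 are higher in the first-named group; no gene passed an adjusted p of 0.05.

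Marker levels of other cell types are given beside the comparisons with skin without surgery, in which limma called 0 genes of each marker list. At an unadjusted limma p under 0.05, 7 of 7 macrophage and 5 of 10 fibroblast markers were higher in non-expanded skin than without surgery. Of the muscle markers 3 were higher and 1 lower at that p, and of the keratinocyte markers 2 and 1. The share of all genes at that p was 15.7% in either direction. The 7 macrophage markers measured, all above background on all 10 arrays, averaged 11.96 to 13.64 in expanded and 11.83 to 14.46 in non-expanded skin, against 9.32 in anagen and 10.85 in telogen skin. The 10 dermal fibroblast markers, also above background throughout, averaged 14.59 to 15.11 in expanded and 14.23 to 15.64 in non-expanded skin, against 13.25 and 14.35 in anagen and telogen skin. Skeletal muscle markers (15 genes, 14 of them above background on all arrays) averaged 13.06 to 15.85 in expanded and 15.56 to 16.75 in non-expanded skin, with 13.16 in anagen and 16.60 in telogen skin. The keratinocyte markers (9 genes, 8 above background on all arrays) averaged 14.91 to 15.39, 13.95 to 15.23, 13.69 and 14.59 in expanded, non-expanded, anagen and telogen skin, far above background on every array. The macrophage means of all 8 expander arrays exceeded both arrays without surgery, while the telogen means of the fibroblast, muscle and keratinocyte markers lay inside the non-expanded range. In whole skin, fewer cells of a type and less RNA per cell cannot be told apart, and the part of cell mixture in the Hox differences was not tested.

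Over the days, no Hox gene had a slope that passed in either arm, or a difference of slopes between arms (0 of 17 in each, with 0% of all genes called, limma). The smallest p for the difference of slopes belonged to Hoxd10, which had 5.23, 4.98, 5.35 and 5.47 in expanded skin at days 0, 7, 14 and 21. The change over 21 days was 0.33 ± 0.47 in the expanded arm and -1.35 ± 0.47 in the non-expanded arm, which differed by 1.68 ± 0.67 (adjusted p = 1.00, unadjusted p = 0.0386). At an unadjusted p under 0.05 Hoxd10 was 1 of 17 in the difference of slopes, against 1.22% of all genes tested, 0.542% on the higher side. Within arms such a p was found for 0 of 17 in expanded skin (2.48% of all genes) and 1 of 17 in non-expanded skin (3.63%), again Hoxd10. Hoxc6 and Hoxc4 had differences of slopes of 1.14 ± 0.80 and 0.80 ± 0.57, which also did not pass. That of Hoxc6 was 1.86 without day 0 and 0.33 without day 21. Hoxd10 and Hoxc4 were below the background limit on all 10 arrays.

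The anagen and telogen arrays, 1 each, differed most in the Hoxb cluster. There were no replicates and no test. Hoxb2 (chromosome 11, 96351632 to 96354020), a gene of the hindbrain and its nerves, had 9.09 in anagen and 6.12 in telogen skin, a difference of 2.98 between the signals, of which the telogen one was below the background limit. The 8 expander arrays lay between these, with 7.47, 7.25, 7.41 and 7.61 in expanded and 7.61, 7.08, 7.12 and 7.54 in non-expanded skin, so the highest and the lowest array were both without surgery. Hoxb3, of the pharyngeal region, had 7.79 in anagen and 6.16 in telogen skin (1.63), the telogen signal again below the limit, against 6.16 to 6.65 in expanded and 6.32 to 7.26 in non-expanded skin. Hoxb6, active in the lateral body wall of the embryo, had 5.89 in anagen and 4.33 in telogen skin (1.55), both below the background limit. Its signals were 4.62, 3.96, 4.23 and 3.95 in expanded and 3.41, 4.58, 4.15 and 3.83 in non-expanded skin.

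Of the 9 Hoxb genes, 7 were higher in anagen skin, with a median of 1.13, and 5 were at least 2-fold higher (Hoxb2, Hoxb3, Hoxb6, Hoxb7 and Hoxb8). Of the other clusters, 2 of 8 Hoxa, 1 of 8 Hoxc and 2 of 7 Hoxd genes were higher, with medians of -0.36, -0.52 and -0.85. Over all 32 genes, 6 were at least 2-fold higher, these Hoxb genes and Hoxa5, and 2 were at least 2-fold lower, Hoxd9 and Hoxd10. Of these 8 genes, Hoxa5 and Hoxb7 were above the background limit on both arrays, Hoxb2, Hoxb3 and Hoxb8 on the anagen array alone, and the other 3 on neither. For all named genes these shares were 17.5% and 17.8%, and the median difference was -0.16. The count of 7 of 9 higher Hoxb genes was the same with the arrays centred and with quantile normalization, which moved the median of all named genes to -0.24 and -0.06. Hoxd10 had 3.34 in anagen and 5.11 in telogen skin, both below the background limit. The annotated spans of Hoxb2 and Hoxb3 overlap that of the same antisense RNA gene, Hoxb3os. Those of Hoxb5 and Hoxb6 overlap that of Hoxb5os, so the Hoxb genes counted may not be separate signals.

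**Figure D4:**
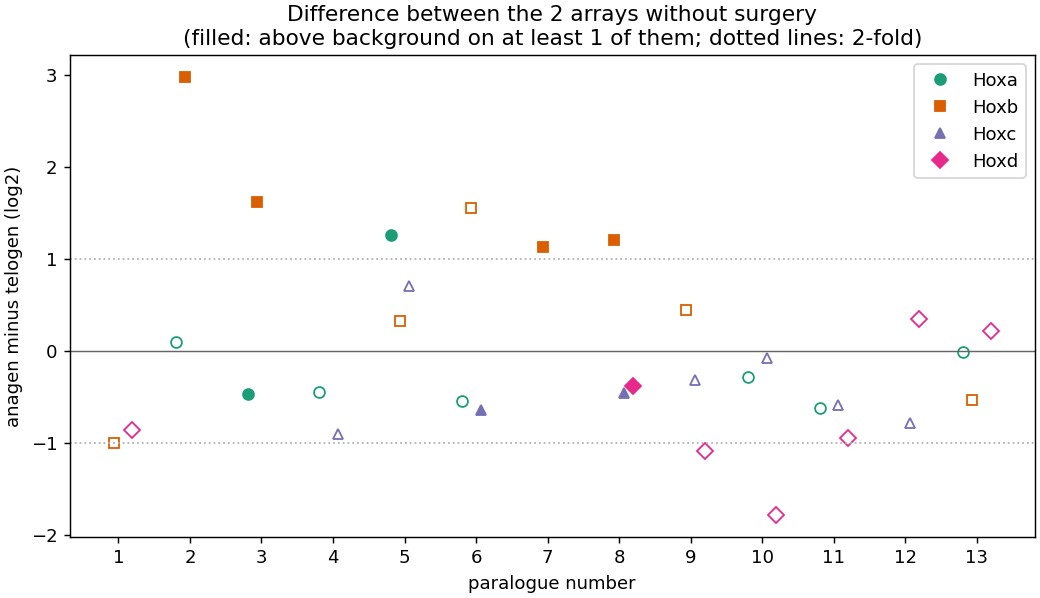
Difference between the anagen and the telogen array (y axis, log2, anagen minus telogen) by paralogue number (x axis) and cluster (symbols). Filled symbols were above the background limit on at least 1 of these arrays and dotted lines mark 2-fold differences. Hoxb2, Hoxb3, Hoxb6, Hoxb7 and Hoxb8 lie above the upper dotted line.

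Hair markers separated these arrays widely. The mean of 12 hair shaft and inner root sheath markers was 16.68 in anagen and 6.71 in telogen skin, and that of 6 melanocyte markers was 11.45 and 6.51. The expanded array of day 7, whose hair marker mean was 12.46, had 7.25 for Hoxb2 and 6.36 for Hoxb3, within the range of the other expander arrays. Hoxc13 (chromosome 15), the hair gene left out of the set, had 8.17 in anagen skin and between 3.22 and 4.05 on the other 9 arrays.

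The partners of Hox proteins showed no called change. In both comparisons given for this and the following lists, limma called 0 of all 13653 genes tested. Pbx, Meis and Pknox proteins bind DNA together with Hox proteins. Of 9 such genes 8 were on the array and 6 were tested, and Pbx2, Pbx3, Meis1 and Meis2 were above background on all arrays. In expanded against non-expanded skin 5 of the 6 were higher and 0 passed, with Pbx3 at 9.54, 9.39, 9.32 and 9.61 in expanded skin at days 0, 7, 14 and 21, and 9.08, 9.03, 8.71 and 9.23 in non-expanded skin (0.45 ± 0.21, limma adjusted p = 0.594). These Pbx3 groups did not overlap, as was so for 2.97% of all genes tested on the higher side. In non-expanded skin against skin without surgery 2 of the 6 were higher and 0 passed.

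Other transcription factors of body position were examined beside the Hox genes, 15 of 21 listed genes being tested. Tbx15, of dorsal skin patterning, Prrx1, of limb and dermal mesenchyme, Zic1 and Meox2 were above background on all 10 arrays. In expanded against non-expanded skin 6 of the 15 were higher and 0 passed, and in non-expanded skin against skin without surgery 13 were higher and 0 passed. Prrx1 had 13.59, 13.76, 13.20 and 12.51 in non-expanded skin at days 0, 7, 14 and 21, against 10.46 in anagen and 12.84 in telogen skin (1.62 ± 0.69, adjusted p = 0.299). Msx2, a homeobox gene of the hair matrix, had 4.15 to 4.51 in non-expanded skin, against 11.67 in anagen and 4.28 in telogen skin, with a fitted difference of -3.72 ± 1.49 (adjusted p = 0.272). Its telogen signal lay within the non-expanded range.

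Regulators of Hox transcription were also not called. Of 21 Polycomb and Trithorax genes tested, which keep Hox clusters silent or active, 15 were higher in expanded than in non-expanded skin and 0 passed. In non-expanded skin against skin without surgery 5 of the 21 were higher and 0 passed. The smallest p there belonged to Cbx8, a Polycomb subunit, with -0.95 ± 0.27 (limma adjusted p = 0.147). Cbx8 exceeded the background limit on the anagen array alone (6.72), with 5.33 to 5.74 in non-expanded skin. Of 14 retinoic acid genes tested, 9 were higher in expanded than in non-expanded skin and 0 passed. At an unadjusted limma p under 0.05 stood 2 on the higher and 1 on the lower side, against 8.8% of all genes tested. In that comparison 0 genes of the partner, body position, Polycomb and Trithorax, and flanking lists had such a p. Aldh1a3, which makes retinoic acid, differed by 0.91 ± 0.26 (adjusted p = 0.426), and Rdh10, which makes its precursor, by 0.76 ± 0.26 (adjusted p = 0.499). Rxrg, a retinoid receptor gene, differed by -0.86 ± 0.30 (adjusted p = 0.505) and exceeded the background limit on no array. Against skin without surgery, 7 of the 14 were higher in non-expanded skin and 0 passed. Stra6, the retinol receptor gene, differed by -3.07 ± 1.14 (adjusted p = 0.237). It had 13.26 in anagen and 8.39 in telogen skin, the latter within the non-expanded range of 6.99 to 8.90.

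Genes next to the clusters and RNAs made within them gave no called change either. Of 14 genes listed as flanking the Hox clusters, 7 were tested, 6 of them higher in expanded than in non-expanded skin and 1 higher in non-expanded skin than in skin without surgery, with 0 passing. Skap2, beside the low-numbered end of the Hoxa cluster, differed by 1.20 ± 0.41 between non-expanded skin and skin without surgery (limma adjusted p = 0.21). It had 10.39 in anagen and 11.73 in telogen skin, the latter within the non-expanded range of 11.66 to 12.63. Mtx2, beside the low-numbered end of the Hoxd cluster, differed by -0.77 ± 0.30 in the same comparison (adjusted p = 0.254). The antisense RNA gene Hoxd3os1 was above background on 8 of 10 arrays and differed by -0.28 ± 0.22 between expanded and non-expanded skin (adjusted p = 0.74). Of the 6 ParaHox genes, relatives of the Hox genes that act in the gut and nervous system, 1 was tested, Cdx1. It differed by 0.31 ± 0.32 between expanded and non-expanded skin (adjusted p = 0.799) and exceeded the background limit on 1 array.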

How the data were processed

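Biotin-labelled targets were made from whole skin RNA with the WT PLUS kit and hybridised to Affymetrix arrays, per the labels' protocols. The deposited table held 1 value for each of 28846 probe sets and 10 arrays, read as log2 signal from its range (1.87 to 19.88). The authors' background correction, summarisation, normalization and log base are not given in the sources used here. On at least 1 array 586 probe sets exceeded 16, above what a 16-bit scanner can give in log2 units, so the scale may be stretched. The submitters' processing notes name mm10. Array medians lay between 6.27 and 6.45, and the few arrays per group set the precision.

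A symbol was given for 19572 probe sets (19505 genes), and all 32 Hox genes matched RefSeq (GRCm38.p6) by gene identifier. For 55 genes with several probe sets the one with the highest mean was used. Genes under the 30th percentile of the mean (4.86) were removed, leaving 13653. Limma 3.58.1 (lmFit, eBayes) in R 4.3.3 fitted all of them, and p-values were two-sided and adjusted by Benjamini-Hochberg over all of them at 0.05. Expanded and non-expanded skin were compared with the day as a block (3 residual degrees of freedom), both with skin without surgery in 3 groups over 10 arrays (7), and slopes over the days within each arm (4). In the fit of 3 groups, anagen and telogen were pooled and the day was not included. The difference between the hair stages thus counted as spread, which can hide differences between the groups. The code was tested on simulated data.

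Both arms carry the same days in the labels, which pairs the arrays by day. After subtracting the mean of each arm, arrays of the same day correlated at -0.13, -0.17, -0.10 and 0.36 for days 0, 7, 14 and 21, so the pairing rests on the labels.

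The members and the gene lists were chosen with earlier results of these data known. Values on every array are given for up to 4 Hox genes with the smallest p in each comparison of groups, 3 for the difference of slopes, the 4 largest anagen to telogen differences and the 4 widest ranges. For the lists, up to 3 genes with the smallest p are named. Tbx15, Zic1, Meox2, Pbx2 and the flanking and antisense genes are named from list membership. The genes Hoxc10, Hoxc6, Hoxa5 and those named in counts were chosen after their values were seen. The adipocyte (9.71 to 10.33 in expanded, 9.26 to 11.49 in non-expanded, 11.08 in anagen and 11.63 in telogen skin) and endothelial marker means (9.27 to 10.37, 9.32 to 10.54, 8.09 and 9.49) were computed in the same way.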

Additional observations from a re-analysis of the deposited data

Results flagged for a closer look

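In groups of 4 arrays, a value was singled out when its gap to the nearest other array, divided by the range of the group, exceeded Dixon's critical value at 95%. This held for 5 of 64 tests, and chance alone singles out about 1 in 20. The 4 arrays of an arm also differ in day.

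Hoxb8 had 4.51 on the expanded array of day 14, against 5.41 to 5.44 on the other expanded arrays, and Hoxb5 had 4.80 on the same array, against 5.07 to 5.08. Hoxd1 was also apart there, with 4.24 against 3.96 to 3.99. Hoxa3 had 6.82 on the non-expanded array of day 7, against 5.98 to 6.12 on the other non-expanded arrays. Hoxc11 had 3.27 on the expanded array of day 0, against 3.41 to 3.43. All but that of Hoxa3 lay below the background limit.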

How the results depend on the processing

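The counts of called Hox genes between expanded and non-expanded skin, and for the difference of slopes, stayed at 0 in all 9 and all 6 alternatives. The value of 0 without the block by day, which leaves the pairing out of the fit, is among these. Over all genes, 2 were called without the block, 1 without day 0 and 0 in each other alternative of these comparisons. The counts of 0 are thus shared by almost all genes and are not particular to Hox genes. With 1 day or array left out in turn the counts of Hox genes were 0 to 0 in every comparison of groups. In non-expanded skin against skin without surgery, 1 Hox gene (Hoxa2) was called with telogen and anagen as separate groups and 3 (Hoxa2, Hoxb2 and Hoxd10) against anagen skin alone, a single array assumed to vary like the other groups. In expanded skin against skin without surgery these counts were 1 (Hoxa2) and 4 (Hoxa2, Hoxb2, Hoxb3 and Hoxd10). Against telogen skin alone, 0 Hox genes were called in both comparisons. In the same fits the calls over all genes numbered 851 and 2645 for non-expanded skin, and 736 and 1850 for expanded skin, against 0 and 65 as reported. Calls over all genes between expanded skin and skin without surgery were 8, 43 and 5 without the expanded array of day 0, 7 or 14 and 86 without that of day 21. Between non-expanded skin and skin without surgery they were 112 without the array of day 14 and 0 without any other, and 0 Hox genes were called in each case. Genes above background on all arrays numbered 10 with the median of the background probe sets as the limit and 8 when at least 5 of 10 arrays sufficed. Hox genes at least 2-fold apart between anagen and telogen skin numbered 8, with 10 after centring and 6 after quantile normalization. Of 150 recomputed values of single Hox genes, 144 kept their direction and their side of the threshold, 6 passed the threshold and 0 changed sign.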
